A study of Mus musculus with 2 samples.

Results

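The genes described here are the cytoplasmic ribosomal protein genes of heart B cells. They were chosen by symbol alone: every gene row beginning with Rps or Rpl and a digit, plus Rpsa, Rplp0, Rplp1 and Rplp2, with at least 100 unique molecular identifiers (UMIs, 1 per captured transcript) over both libraries. Of 31053 gene rows, 105 matched by symbol and 96 passed the minimum. Heart B cells came from C57BL6/J wild-type mice of 2 ages, with 6 mice per age pooled into 1 library, so no test across mice was possible. The neonatal library came from male and female mice 2 weeks old, and the adult library from male mice 8 weeks old. Sorting took live B cells without doublets, on 1 day and after 1 digestion protocol for both ages. Intervals are exact 95% intervals and cover counting error only.

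A ribosome is built from a small and a large subunit, each a core of ribosomal RNA with many proteins that enter it mostly as single copies. Most of these proteins are encoded by 1 active gene each, and their messenger RNAs are short, abundant and often begin with a stretch of pyrimidines, the 5′ terminal oligopyrimidine (TOP) tract, through which the growth regulator mTOR controls their translation. In B cells ribosome production rises on activation. Vpreb3 marks immature B cells, whereas Cr2 (CD21) and Fcer2a (CD23) appear as B cells mature in the periphery.

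The label did not hold for every member. Of the 96 members, 31 encode small subunit proteins and 46 encode large subunit proteins, and these 77 subunit genes held 99.2% of the members' UMIs in neonatal and 99.4% in adult cells. The other 19 were 4 paralogs (Rpl36al, Rpl22l1, Rps27l and Rpl7l1), 7 genes named as pseudogenes, the retrogene Rps27rt, Rps19bp1 and 6 ribosomal protein S6 kinases, which are signaling enzymes and not ribosomal proteins. The 9 rows below the minimum held 0 to 78 UMIs. Among them were Rpl3l, the muscle paralog of Rpl3, with 6 neonatal UMIs and 0 adult UMIs, Rpl39l with 19 and 13, and Rpl10l with 0 in both.

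Some of these genes have very short coding sequences. Those of the large subunit gene Rpl41 and the small subunit gene Rps28 are given here from the GENCODE annotation of GRCm38. The adult over neonatal ratios of both genes turned out among the lowest. The start codon is in capitals and the stop codon is left out. The whole transcripts are longer, with annotated lengths of 544 bases for Rpl41 and 387 bases for Rps28. Rpl41 lies on the minus strand at chr10:128548114-128549305 and its coding sequence has 75 bases. Rps28 lies on the minus strand at chr17:33819027-33824562 and has 207 coding bases.
Rpl41: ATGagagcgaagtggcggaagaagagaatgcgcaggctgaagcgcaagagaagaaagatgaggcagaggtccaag
Rps28: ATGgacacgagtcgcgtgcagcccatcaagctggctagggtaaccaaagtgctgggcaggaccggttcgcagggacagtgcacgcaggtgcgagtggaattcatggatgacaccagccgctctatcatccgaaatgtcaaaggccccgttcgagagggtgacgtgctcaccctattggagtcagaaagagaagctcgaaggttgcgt

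A TOP-like tract was sought on the gene's strand as a C followed by at least 4 C or T, beginning within 3 bases of the start that RefSeq annotates on GRCm38.p6. It was found in 24 of 67 promoters of the 57 subunit genes that matched the table, or 35.8%, and in 11.5% of all 32851 promoters. Windows of 30 bases around the start are shown for genes from both ends of the order by age ratio, with a tract in capitals where these letters were found. From the high end these are Rpl13 at chr8:123102340-123102369 (plus strand) and Rpl14 at chr9:120571507-120571536 (plus), and from the low end Rpl27 at chr11:101442235-101442264 (plus) and Rps28 at chr17:33824543-33824572 (minus). Of the 2 high genes only Rpl14 had a match. No match says only that the letters are not in the window around this annotated start.
Rpl13: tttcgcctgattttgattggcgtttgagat
Rpl14: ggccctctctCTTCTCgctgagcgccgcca
Rpl27: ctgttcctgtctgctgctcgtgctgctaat
Rps28: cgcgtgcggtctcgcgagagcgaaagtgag

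The droplets that entered had at least 2000 gene UMIs, at most 10% mitochondrial UMIs and a UMI of Cd79a, a part of the B cell receptor. There were 2077 in the neonatal library with a median of 6000 UMIs and 3611 in the adult library with a median of 6131, and 2 barcodes entered from both libraries. B cell markers were present throughout: Cd79b was found in 99.5% and 99.4% of these cells and Cd74 in 99.8% and 100%. Summed markers of macrophages reached 92.1 CPM (counts scaled to a common library total) in neonatal and 16.5 in adult cells, those of neutrophils 25.1 and 0, and those of endothelial cells 139 and 117, of which Pecam1 is known from B cells too. Without droplets that held 2 or more UMIs of markers of other cell types, which left out 665 neonatal cells (32.0%) and 1025 adult cells (28.4%), the age difference described next was 4.80 percentage points. With Pecam1 not counted among these markers, 73 cells (3.51%) and 117 cells (3.24%) were left out and the difference was 4.05 points. The share of mitochondrial UMIs was 7.37% and 6.87%.

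Ribosomal protein transcripts were a large part of the RNA of these cells, and a larger part in the adult library. The members held 4438727 of 16403180 neonatal UMIs, or 27.1% (interval 27.04 to 27.08%), and 10756411 of 34623240 adult UMIs, or 31.1% (31.05 to 31.08%). The adult share was 4.01 percentage points higher, a ratio of 1.15. Both subunits took part: small subunit genes held 12.6% of neonatal and 14.6% of adult UMIs, and large subunit genes 14.2% and 16.3%. A share is relative, so more ribosomal protein RNA and less of other RNA cannot be told apart. In near-empty droplets, whose UMIs come from free RNA, the members held 27.7% at a mean of 55.9 UMIs in the neonatal library and 29.6% at 92.0 UMIs in the adult library, and with that profile subtracted from the cells the difference was 4.03 points.

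The shift ran through the whole distribution of cells. The share per cell had a median of 26.2% in the neonatal library, with quartiles of 21.8% and 29.9%, and a median of 30.7% in the adult library, with quartiles of 27.4% and 33.8%. The libraries overlapped widely: 79.3% of neonatal cells lay below the adult median and 18.1% of adult cells below the neonatal one. Cells differed by far more than counting error. With every cell thinned to 2000 UMIs, the SD over cells was 5.77 points in neonatal and 5.14 points in adult cells, against 0.974 and 1.02 points from counting alone, and the mean shares were 26.1% and 30.6%.

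**Figure D1:**
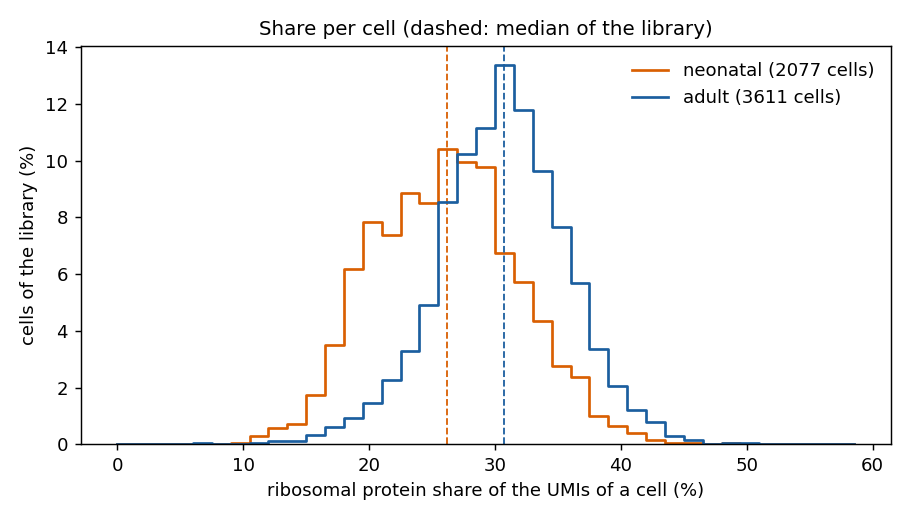
Percentage of the cells of each library (vertical axis) by the ribosomal protein share of the UMIs of a cell (horizontal axis, in bins of 1.5%), with dashed lines at the medians. The adult curve (3611 cells, median 30.7%) lies to the right of the neonatal curve (2077 cells, median 26.2%), with wide overlap.

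The pool of the neonatal library held cells of both sexes. The share was 26.4% in the 323 neonatal cells with Xist UMIs and no Y-linked UMI, and 27.6% in the 1279 neonatal cells with Y-linked UMIs and no Xist. Both values lay below the 31.1% of the adult cells with Y-linked UMIs only. With neonatal male cells alone, set against all adult cells, the age difference was 3.50 points. The neonatal groups also differed in depth, with medians of 6269 UMIs for Y-linked only and 5543 for Xist only.

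Cells with more UMIs had a higher ribosomal share, up to a point. In the neonatal library the median share per cell was 19.6% at 2000 to 3000 UMIs (19 cells), 21.1% at 3000 to 4000, 24.0% at 4000 to 6000, 28.1% at 6000 to 10000, 28.5% at 10000 to 20000 and 28.6% in 86 cells with 20000 UMIs or more. In the adult library the medians in the same order were 27.2%, 29.1%, 30.0%, 32.0%, 33.0% and 30.6%, so the deepest adult cells lay below the bin before them. In summed UMIs, neonatal cells with 10000 UMIs or more held 28.4% and those with 2000 to 3000 held 21.1%, a difference of 7.32 points. In the adult library these shares were 31.5% and 27.9%, a difference of 3.56 points. With a lowest bin of 2000 to 4000 UMIs, added because the lowest neonatal bin had few cells, the differences were 6.83 and 2.72 points. The mitochondrial share ranged from 6.63% to 7.59% over the bins of both libraries. However, with droplets of up to 20% mitochondrial UMIs let in, the depth difference was 16.0 points in neonatal and 12.2 points in adult cells. It was 11.9 points in neonatal male cells alone, where the lowest bin can hold no more than the 19 neonatal cells above. In adult cells with fewer than 2 UMIs of markers of other cell types it was 5.48 points.

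The adult share was higher at every depth. The difference in summed UMIs was 6.79 points at 2000 to 3000 UMIs, 7.15 at 3000 to 4000, 5.11 at 4000 to 6000, 3.66 at 6000 to 10000, 3.89 at 10000 to 20000 and 2.43 at 20000 or more. The gap was thus widest in shallow cells.

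**Figure D2:**
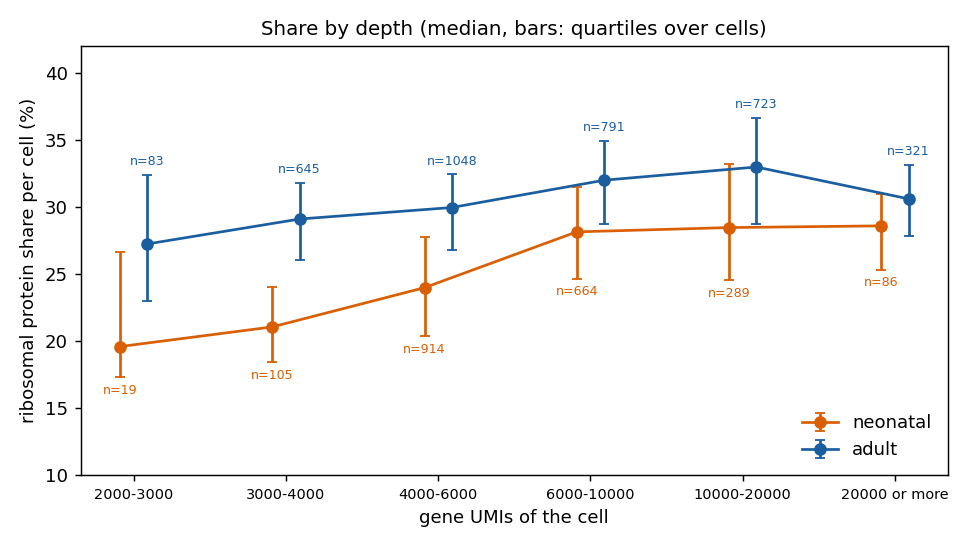
Median ribosomal protein share per cell (vertical axis, percent) in 6 bins of gene UMIs per cell (horizontal axis), with bars for the quartiles over cells and the number of cells at each point. The adult medians lie above the neonatal ones in all 6 bins, and the neonatal medians climb from 19.6% to 28.6%.

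Single subunit genes followed the depth with different slopes. Between cells with 10000 UMIs or more and cells with 2000 to 4000, 75 of the 77 neonatal subunit genes had intervals above 0 and none below (8.27% and 15.9% of all genes tested), with a median log2 ratio of 0.38 against -0.12 over 6141 genes. In the adult library 54 had intervals above 0 and 14 below (17.5% and 19.1% of all genes), with a median of 0.13 against -0.02 over 8690 genes. Intervals are narrower for abundant genes, so these shares depend on level too. At least 1.5-fold higher in deep cells were 12 neonatal subunit genes (11.2% of all genes tested were past this mark) and 3 adult ones (11.6% of all genes). None was 1.5-fold lower in either library (15.4% and 7.12% of all genes). Rps12, a small subunit protein, had log2 ratios of 0.96 (neonatal) and 0.66 (adult), and Rplp0, the anchor of the acidic stalk that recruits translation factors, had 0.94 and 0.76. Rps2, a small subunit protein, had 0.79 and 0.60. These were the 3 subunit genes past the mark in adult cells, and all of them passed it in neonatal cells too. At the other end Rps27 had log2 ratios of -0.02 and -0.42. Of the 75-base stretches at the transcript end, 96.7% of those of Rps12, 98.5% of Rps27 and 33.6% of Rps2 occur in another counted gene. The levels of these genes are thus uncertain.

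The ribosomal share differed with the maturation markers. To compare cells at equal depth, each cell was thinned to 2000 UMIs. Markers were called after thinning, so a cell without a marker UMI may have had one as sequenced. As sequenced, Vpreb3 was found in 71.4% of neonatal and 56.9% of adult cells, Cr2 in 16.5% and 47.1%, and Fcer2a in 44.5% and 72.9%. After thinning, Vpreb3 was found in 45.8% and 30.7%, Cr2 in 5.63% and 19.2%, and Fcer2a in 24.5% and 42.4%. Cells with a Vpreb3 UMI and none of Cr2 or Fcer2a held 23.7% ribosomal protein UMIs in the neonatal library (714 cells, interval 23.6 to 23.7%), and cells with Cr2 or Fcer2a and no Vpreb3 held 27.3% (345 cells, 27.2 to 27.4%). The Vpreb3 cells were thus lower, by a difference of -3.66 points. In the adult library the shares were 29.0% (466 cells) and 30.6% (1254 cells), a difference of -1.60 points. Cells with both kinds of marker held 26.7% (238 neonatal cells) and 29.4% (641 adult cells). Cells with none of the 3 markers held the most, 27.6% (780 neonatal cells) and 31.7% (1250 adult cells). Of the 1107 adult cells with Vpreb3, 641 thus also had Cr2 or Fcer2a. As sequenced, cells with none were also the deepest, with medians of 6869.5 and 8237.5 UMIs, and their share was not compared within depth bins. The spread over cells within a class was wide, with SDs of 5.38 and 5.34 points in the neonatal classes and 5.37 and 4.68 points in the adult ones.

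The classes also differed in depth as sequenced, with medians of 5331.5 UMIs for neonatal Vpreb3 cells and 5969 for neonatal Cr2 or Fcer2a cells, and of 4799.5 and 6217.5 for the adult ones. Within depth bins that held at least 20 cells of each class, the Vpreb3 cells lay lower in all, with differences of -4.0, -2.23 and -4.60 points in neonatal cells from 4000, 6000 and 10000 UMIs, and of -1.94, -2.06 and -3.07 points in adult cells from 3000, 4000 and 6000 UMIs. With the classes taken from 1000 UMIs of other genes, so that ribosomal UMIs could not crowd out a marker, the differences were -3.71 and -1.68 points.

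Taken singly in the thinned cells, the markers differed. Cells with a Vpreb3 UMI lay lower than cells without, with a difference of -3.1 points in neonatal and -1.91 points in adult cells. Cells with a Fcer2a UMI lay above cells without in the neonatal library (27.2% and 25.7%, a difference of 1.48 points), but below in the adult library (30.0% and 31.0%, a difference of -0.964 points). For Cr2 the difference was small in both, at 0.456 and -0.112 points. The age difference was present in each class, at 5.31 points in Vpreb3 cells, 3.25 points in Cr2 or Fcer2a cells, 2.77 points in cells with both kinds of marker and 4.15 points in cells with none.

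Most subunit genes were higher in the Cr2 or Fcer2a cells. From Vpreb3 cells to Cr2 or Fcer2a cells, 72 of 77 neonatal subunit genes had intervals above 0 and none below (9.08% and 13% of all genes tested). In the adult library 51 lay above and none below (4.27% and 5.66% of all genes), of which 50 were above in both. The share of all genes above 0 in both was not computed. The median log2 ratios were 0.20 and 0.06, against -0.07 over 2929 genes and -0.03 over 3837 genes with enough UMIs. No subunit gene was 1.5-fold higher or lower in either library (3% of neonatal and 1.41% of adult genes were this much higher, and 6.42% and 1.54% this much lower). The highest subunit gene was Rps27 in the neonatal library, at 0.37, but it had 0.02 in the adult library. Members with at least 1000 UMIs were also ordered by the smaller of their 2 ratios, and Rps12 came first, with log2 ratios of 0.25 (0.18 to 0.32) and 0.24 (0.18 to 0.29). In that order Rps27rt had 0.23 and 0.26, with intervals that held 0, Rps2 had 0.18 and 0.23, Rpl13, a large subunit protein, had 0.25 and 0.17, and the paralog Rpl22l1 had 0.26 and 0.15. The neonatal value of Rps2 lay below the neonatal subunit median. Rps12, Rps27, Rps27rt and Rps2 each share stretches at the transcript end with another counted gene, so their levels are uncertain. The members of this size below 0 in both libraries were Rps6ka1, Rps6kb1, Rps12-ps3, Rpl7l1 and Rpl9-ps6, each with intervals that held 0 and 37 to 199 UMIs.

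Most subunit genes were higher in the adult library. The adult CPM was higher for 62 of the 77 and lower for 15, with intervals above 0 for 61 (18.3% of all genes) and below 0 for 14 (44.1% of all genes). The median log2 ratio was 0.22, in small subunit genes 0.26 (27 of 31 higher) and in large subunit genes 0.19 (35 of 46 higher). All 9830 genes with at least 100 UMIs had a median of -0.14, so the subunit genes lay 0.36 above it. Over all 96 members the median was 0.16. Ratios were small: 3 of the 96 members were 1.5-fold apart, against 17.5% of all genes, with none higher (6.49% of all genes) and 3 lower, Rps27rt, Rpl36al and Rps28 (11% of all genes). Scaled so that the median gene did not change, or by TMM (trimmed mean of M-values), 10 members passed 1.5-fold, 8 of them higher and 2 lower. Rps28 was not among them. The share of all genes past 1.5-fold under these scalings was not computed, so these counts have no background beside them. Within cells of 4000 to 6000 UMIs, 68 of the 77 subunit genes were higher in the adult library, with a median of 0.29. The same values over all genes in these cells were not computed, so this count has no background beside it.

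**Figure D3:**
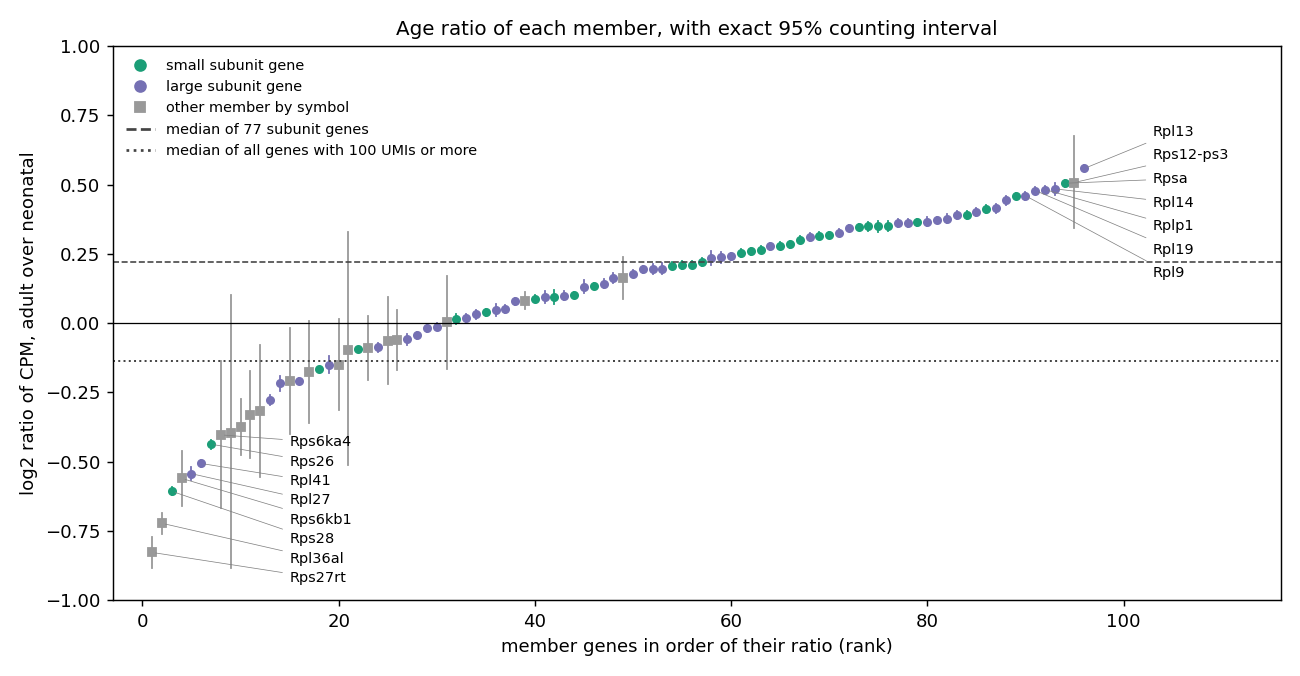
Log2 ratio of CPM, adult over neonatal (vertical axis), for the 96 members in order of their ratio (horizontal axis), with exact 95% counting intervals as bars, the median of the 77 subunit genes (0.22, dashed) and that of all genes with 100 UMIs or more (-0.14, dotted). Rps28, Rpl27, Rpl41 and Rps26 lie far below the run of subunit genes, and Rpl13 and Rpsa end it at the top.

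At the top of the order, Rpl13 had 5614 CPM in neonatal and 8265 CPM in adult cells, a log2 ratio of 0.56 (0.55 to 0.57). Rpsa, a small subunit protein that is also known as a laminin receptor, had 4059 and 5759 CPM, a log2 ratio of 0.50. The large subunit genes Rpl14, Rpl19, Rpl9, Rpl7 and Rpl3 had log2 ratios of 0.48, 0.48, 0.46, 0.44 and 0.41. For Rpl9, 82.4% of the 75-base stretches at the transcript end occur in another counted gene, so its level is uncertain. The small subunit gene Rps24 stood at 7112 and 9777 CPM, or 0.46. The pseudogene row Rps12-ps3 had 24.6 and 34.9 CPM (0.51, 0.34 to 0.67), but all of its last 500 transcript bases recur in another counted gene, so its reads may not be its own. The stalk genes differed from each other. Rplp1 had 4792 and 6692 CPM (0.48) and Rplp0 3595 and 4508 CPM (0.33), whereas Rplp2 had 3356 and 3316 CPM (-0.02), a sign that 5 of 16 alternatives turned. The 5S ribonucleoprotein genes Rpl5 and Rpl11, whose proteins can bind Mdm2, had 0.24 and 0.37. Shared stretches made up 45.88% for Rplp1, 35.45% for Rplp2 and 21.36% for Rpl11, so their levels are uncertain too. The X-linked small subunit gene Rps4x had 3343 and 4379 CPM (0.39).

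Some members broke from the rest. A member was counted as breaking when its log2 ratio lay at least 1.5-fold from the subunit median of 0.22. None did so on the high side (3.87% of all genes) and 10 did so on the low side (25% of all genes), 4 of them subunit genes. Rps28 had 3826 CPM in neonatal and 2512 CPM in adult cells, a log2 ratio of -0.61 (-0.62 to -0.59). Rpl27, a large subunit protein, had 1530 and 1050 CPM, a log2 ratio of -0.54 (-0.57 to -0.52). Rpl41, the shortest ribosomal protein, had 4811 and 3386 CPM, a log2 ratio of -0.51 (-0.52 to -0.49). Rps26, a small subunit protein, had 2928 and 2163 CPM, a log2 ratio of -0.44 (-0.45 to -0.42). Within cells of 4000 to 6000 UMIs Rps26 had a log2 ratio of -0.20, which lay less than 1.5-fold below the subunit median of 0.29 in those cells, whereas Rps28, Rpl27 and Rpl41 had -0.53, -0.55 and -0.46 and stayed past the mark. Of the 75-base stretches at the transcript end, 79.1% of those of Rpl27 and 37.3% of those of Rpl41 occur in another counted gene, so the levels of both are uncertain, and none of those of Rps28 and Rps26 do. These 4 genes, at chr17:33819027-33824562 (minus strand), chr11:101442298-101445529 (plus), chr10:128548114-128549305 (minus) and chr10:128624534-128626747 (minus), made up 4.88% of subunit gene UMIs in neonatal and 2.95% in adult cells. The next subunit gene in the order was Rpl35, at -0.28, and then Rpl13a at -0.22, Rpl39 at -0.21 and Rps29 at -0.17. Shared stretches made up 72.8% for Rpl35, so its level is uncertain, and 14.55% for Rpl13a.

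The other 6 that broke from the rest were not subunit genes. Rps27rt, a copy of Rps27 without introns, had 276 and 155 CPM, a log2 ratio of -0.83 (-0.89 to -0.77). Of its last transcript bases, 90.3% of the 75-base stretches occur in another counted gene, so its reads cannot be cleanly told from those of Rps27. Rpl36al, a paralog of Rpl36a, had 606 and 367 CPM, a log2 ratio of -0.72 (-0.76 to -0.68), and 61.5% of its 75-base stretches are shared. Rps6kb1, the S6 kinase that acts below mTOR, had 84.4 and 57.2 CPM (-0.56). The remaining 3, Rps6ka4, Rpl7a-ps5 and Rpl27-ps3, had 58 to 1301 neonatal UMIs and log2 ratios of -0.40, -0.40 and -0.38, and the interval of Rpl7a-ps5 held 0.

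The 4 low subunit genes differed between the libraries at every depth and in every marker class. Counted as a percentage of subunit gene UMIs, Rps28 stood at 1.37 to 1.45% over the 5 neonatal depth bins with at least 20 cells and at 0.784 to 0.845% over the 6 adult bins. Over the 4 marker classes it stood at 1.40 to 1.49% and 0.819 to 0.843%. Rpl41 stood at 1.67 to 2.00% and 0.853 to 1.17% over the depth bins, Rpl27 at 0.509 to 0.640% and 0.320 to 0.368%, and Rps26 at 0.944 to 1.15% and 0.576 to 0.806%. The ranges of the 2 libraries did not overlap for any of the 4. These genes were picked by their ratio in the same counts, so this is no separate support. Apart from Rpl13 and Rpsa, such ranges were not computed for other subunit genes. Rpl13, at 1.92 to 2.20% and 2.52 to 2.74%, did not overlap either, but Rpsa did, at 1.29 to 1.76% and 1.62 to 1.99%. In single cells the 4 low genes together had a median of 4.88% in the neonatal library, with 5th and 95th percentiles of 3.81% and 6.03%, and a median of 2.95% in the adult library, with percentiles of 2.20% and 3.85%. The free RNA in near-empty droplets had log2 ratios of the same sign, at -0.60 for Rps28, -0.60 for Rpl27, -0.61 for Rpl41, -0.41 for Rps26 and 0.41 for Rpl13. Library preparation and age cannot be told apart here.

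**Figure D4:**
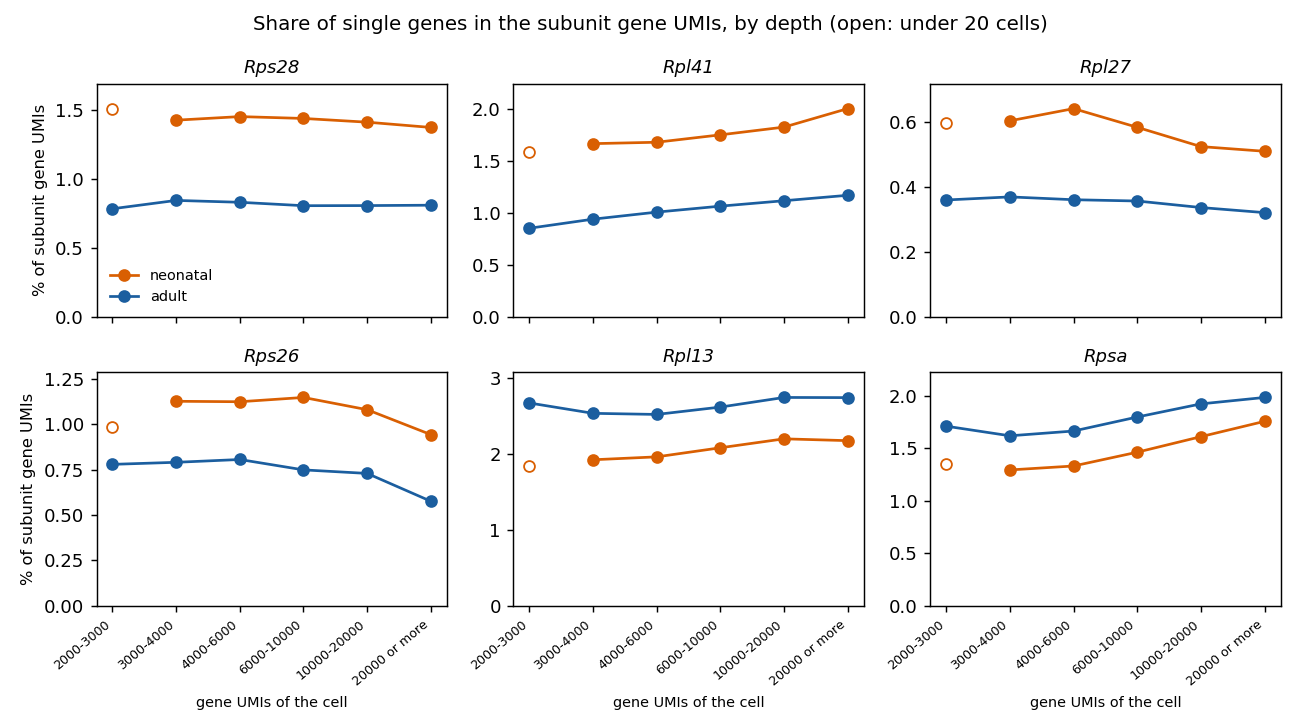
Percentage of subunit gene UMIs taken by each of 6 genes (vertical axes, from 0) in 6 bins of gene UMIs per cell (horizontal axes), for the neonatal and the adult library, with an open circle for the bin of 19 cells. For Rps28, Rpl41, Rpl27 and Rps26 the neonatal line lies above the adult line in every bin, and for Rpl13 and Rpsa below it.

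Subunit genes with shorter coding sequences lay lower in the order. The grouping by coding length was chosen after the ratios had been seen. All 9 subunit genes with under 300 coding bases (Rps28, Rpl41, Rpl39, Rps29, Rps27, Rpl38, Rpl37, Rpl37a and Rps21) lay below the subunit median, with a median log2 ratio of -0.09. They took 15.9% of subunit gene UMIs in neonatal and 12.4% in adult cells. The median was 0.19 for the 27 genes with 300 to 450 bases, 0.26 for the 19 with 450 to 600 and 0.35 for the 22 with 600 or more, and 21 of those 22 were higher in the adult library. Across the 77 genes, which share their libraries and are not independent replicates, Pearson's r with coding length was 0.51 and Spearman's rho 0.57. With annotated mRNA length the relation was weaker, with an r of 0.22 and a rho of 0.43. For the class difference, rho with coding length was -0.41 in neonatal and -0.04 in adult cells. Other genes with at least 1000 UMIs had medians of -0.03 under 300 bases (155 genes), -0.03 at 300 to 450, -0.08 at 450 to 600 and -0.17 at 600 or more (4037 genes). As Rpl27, Rps26 and Rpl35 show, low genes were not all among the shortest.

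**Figure D5:**
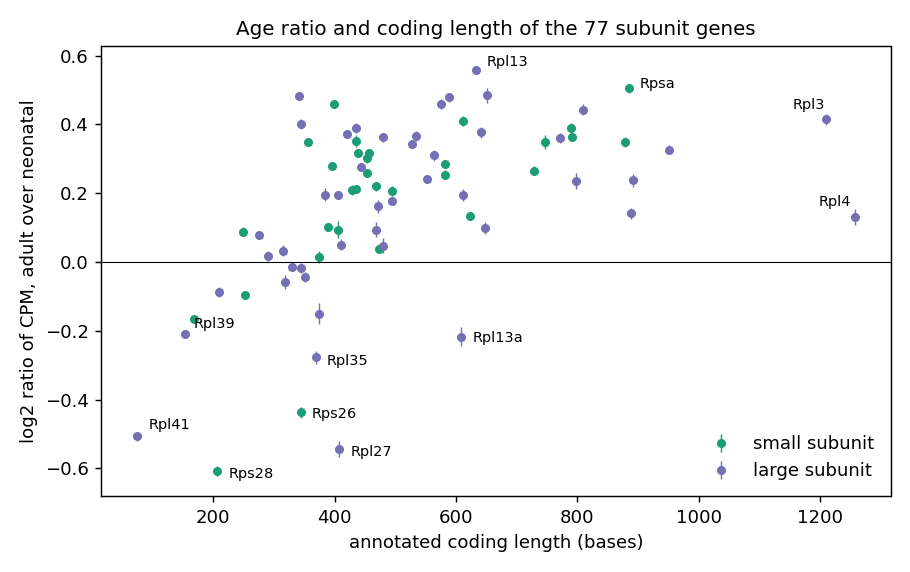
Log2 ratio of CPM, adult over neonatal (vertical axis), against annotated coding length in bases (horizontal axis) for the 77 subunit genes, with exact 95% counting intervals as bars. Genes under 300 bases lie between -0.61 and 0.09, and Rpl27, Rps26 and Rpl13a lie below genes of their own length.

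Levels also differed widely among genes whose proteins enter the ribosome mostly in equal numbers. Each UMI stands for 1 captured 3′ end, so CPM needs no correction for length, but reads shared with another gene are lost. More than 50% of the 75-base stretches were shared in 8 of the 77 subunit genes, Rps27 (98.5%) and Rps12 (96.7%) among them, and levels of such genes are uncertain. In 59 of the 77 none was shared. The highest members in the neonatal library were Rps27 at 7229 CPM, Rps24 at 7112, Rps29 at 6658, Rpl13 at 5614 and Rps20 at 5566. In the adult library they were Rps24 at 9777 CPM, Rpl13 at 8265, Rps20 at 7085, Rps27 at 6769 and Rplp1 at 6692. The lowest subunit gene was Rpl31 in both, at 824 and 742 CPM. No stretch of Rps24 or Rpl31 was shared. The highest stood 8.78-fold above the lowest in neonatal and 13.2-fold in adult cells.

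Each paralog held fewer UMIs than its partner, by widely different margins. Rpl36al held 26.3% of the UMIs of Rpl36a and Rpl36al together in the neonatal library (25.8 to 26.7%) and 18.4% in the adult library (18.1 to 18.6%). Of the 75-base stretches, 61.5% of those of Rpl36al and 50.6% of those of Rpl36a occur in another counted gene, so this split is uncertain. Rpl22l1, which is known to balance Rpl22, held 27.6% and 26.1% of its pair. Rps27l, a p53 target, held 1.61% and 1.92%, and Rpl7l1, which acts in ribosome assembly, held 2.73% and 1.94%. Rpl39l, known from testis, held 0.0221% and 0.00829%.

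Other genes of the translation machinery were compared with lists by role, to be read beside the median of -0.14 and the 17.5% past 1.5-fold over all genes. Subunit proteins with other symbols were also higher in the adult library: Fau, which encodes Rps30 fused to a ubiquitin-like protein, had a log2 ratio of 0.21 and Rack1 0.12. Of 21 translation factors, 15 were higher in the adult library and 6 lower (median 0.09), with intervals above 0 for 13 and below 0 for 6. The 3 past 1.5-fold, a share near that of all genes, were Eef1d, an exchange factor of elongation, with 241 and 429 CPM (0.83), Eif4b, a helper of the initiation helicase, with 83.7 and 133 CPM (0.67), and Eif4ebp1, which blocks cap-dependent initiation, with 37.6 and 22.5 CPM (-0.74). Elsewhere in this list, Tpt1, Eef1g, Eef1b2 and Eef1a1 had 0.50, 0.44, 0.38 and 0.30, whereas Eef2 had 0.01 with an interval that held 0 and Pabpc1 had -0.11. In contrast, 18 of 20 ribosome assembly genes were lower in the adult library (median -0.28), with intervals below 0 for 16 and above 0 for 1, against 44.1% and 18.3% of all genes. Past 1.5-fold was 1 of them (11% of all genes were this much lower), Polr1a, the largest part of RNA polymerase I, at 34.7 and 21.5 CPM (-0.69). The nucleolar protein genes Npm1 and Ncl had 0.16 and -0.22. Mitochondrial ribosomal protein genes, which serve a separate ribosome, had a median of -0.06 over 77 genes, with 27 higher and 50 lower.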

How the data were processed

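The data were 2 single cell 3′ libraries (Chromium v3 chemistry), 1 per age. Alignment and UMI counting were done by the authors in Cell Ranger, version 3.0.2 per the file headers (the Methods name another release), on mm10 per the submitters' processing notes. The deposited values are raw UMI counts per gene for all barcodes, with no filter and no normalization. The antibody rows held 3 and 2 UMIs and were not used.

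Droplets with at least 2000 gene UMIs, at most 10% mitochondrial UMIs and at least 1 Cd79a UMI entered. Counts were summed per library and divided by the total (CPM). No doublet caller was run. Doublets were excluded in sorting, which does not remove droplets that caught more than 1 cell. With 1 library per age no test across samples exists, and 1.5-fold served as a rule of size beside all genes with at least 100 UMIs. Depth contrasts used sums over cells, and class contrasts cells thinned to 2000 UMIs. Near-empty droplets were ranks 45000 to 90000 by UMIs. Gene positions and lengths came from the GENCODE annotation of GRCm38, and promoters from RefSeq on GRCm38.p6. Reads that match more than 1 gene are dropped by Cell Ranger, so genes with a near copy are uncertain.

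Named genes were the 10 highest and 10 lowest age ratios among members with at least 1000 UMIs, members that break from the rest, the 5 most abundant per library, the stalk and 5S genes, Rpsa, Rps4x, paralogs, the leading class ratios and fixed lists. The members and lists were chosen with earlier results of these data known. The tools were Python 3.11.15 with matplotlib 3.10.9, scipy 1.17.1, pandas 2.3.3 and numpy 2.4.6, and the interval code was tested on simulated data. Rps4l, Gas5 and most small nucleolar RNA host genes were not analysed here, and some genes are not reported here. Alternatives are described in the closing section.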

Additional observations from a re-analysis of the deposited data

Results flagged for a closer look

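The split of cells by a single marker moved opposite ways in the 2 libraries for Fcer2a (ribosomal share with the marker minus without, 1.48 points in neonatal and -0.964 points in adult cells) and for Cr2 (0.456 and -0.112 points). For Cr2 the adult intervals overlapped, at 30.409 to 30.562% with the marker and 30.560 to 30.635% without. These splits used the thinned cells, and only 117 neonatal cells had a Cr2 UMI after thinning, with an SD over cells of 5.84 points. With 1 library per age the differences for Fcer2a and Cr2 were not tested.

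For 11 of the subunit genes reported here the ratio between deep and shallow cells lay on opposite sides of 0 in the libraries. It was above 0 in the neonatal and below 0 in the adult library, with counting intervals off 0 in both. The difference was not tested. The share of all genes with such opposite ratios was not computed, and intervals are narrower for abundant genes. The log2 ratios, neonatal first, were 0.41 and -0.03 for Rps21, 0.32 and -0.08 for Rps25, 0.30 and -0.22 for Rps29, 0.28 and -0.15 for Rps26, 0.28 and -0.06 for Rps24, 0.26 and -0.03 for Rps14, 0.25 and -0.17 for Rps15, 0.20 and -0.08 for Rps16, 0.11 and -0.12 for Rpl35a, 0.11 and -0.17 for Rpl5, and 0.10 and -0.13 for Rpl26.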

How the results depend on the processing

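With 1 pooled library per age, intervals cover counting error only, and mice, preparation and age cannot be told apart. Cells of 1 library are not replicates, and a share is relative to all other RNA. No paired analysis was possible because each age had only 1 pooled library. The age, depth and class differences of the share and the median ratio kept their direction in every alternative run. The values that moved follow. Differences of the share counted as moved when they changed by more than counting error. The number of members past 1.5-fold counted as moved when it changed by more than 1.5-fold. The median ratio was judged against the median half-width of the members' intervals.

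The age difference in the share (4.01 points) was 4.04 points with a minimum of 4000 UMIs, 4.04 with up to 20% mitochondrial UMIs, 4.11 without the Cd79a requirement, 4.80 without droplets holding 2 UMIs of other cell types, 4.10 without the top 2% of droplets, 4.48 as a mean over cells, 4.48 with cells thinned to 2000 UMIs, 4.16 without immunoglobulin and mitochondrial genes in the denominator, 3.50 with neonatal male cells only and 4.04 with subunit genes only. It was 4.13 without cells whose barcode held at least 500 UMIs in the other library, which left out 61 neonatal and 45 adult cells. It was 4.05 without droplets holding 2 UMIs of other cell types when Pecam1 was not counted. Both alternatives were chosen after seeing the data, as was the wider lowest depth bin below.

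The number of members past 1.5-fold (3) was 6 without droplets holding UMIs of other cell types, 5 after thinning, 1 with subunit genes only, 10 with median-of-ratios scaling, 10 with TMM scaling and 5 with members of at least 10 UMIs. The share of all genes past 1.5-fold was not recomputed under these alternatives. Rps28 no longer passed under both scalings, without those droplets, as a mean over cells and after thinning. The median log2 ratio of members (0.16) was 0.20 without droplets holding UMIs of other cell types, 0.20 as a mean over cells, 0.20 after thinning, 0.12 with neonatal male cells only, 0.22 with subunit genes only, 0.30 with median-of-ratios scaling and 0.30 with TMM scaling.

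The depth difference in neonatal cells (7.32 points) was 16.0 with up to 20% mitochondrial UMIs, 8.16 without the Cd79a requirement, 7.80 without the top 2% of droplets, 8.15 without immunoglobulin and mitochondrial genes, 11.9 in male cells and 6.83 with a lowest bin of 2000 to 4000 UMIs. In adult cells (3.56 points) it was 12.2 with up to 20% mitochondrial UMIs, 5.48 without droplets holding UMIs of other cell types, 3.83 without the top 2% of droplets, 3.98 as a mean over cells, 3.97 after thinning, 3.88 without immunoglobulin and mitochondrial genes and 2.72 with the wider lowest bin. The value for male cells rests on no more than the 19 neonatal cells with 2000 to 3000 UMIs. The cause of these moves was not tested, and with a minimum of 4000 UMIs the depth differences have no value.

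The class difference in neonatal cells (-3.66 points) was -3.28 with a minimum of 4000 UMIs, -3.01 with up to 20% mitochondrial UMIs, -3.89 without the Cd79a requirement, -3.89 without the top 2% of droplets and -3.88 without immunoglobulin and mitochondrial genes. In adult cells (-1.60 points) it was -1.42 with a minimum of 1000 UMIs, -1.87 with 4000, -1.32 with up to 20% mitochondrial UMIs and -1.78 without the Cd79a requirement. Of 288 values for 18 named genes over 16 alternatives, 5 turned in direction among genes whose main interval lay off 0. All were of Rplp2 (-0.02): 0.048 without droplets holding UMIs of other cell types, 0.042 as a mean over cells and 0.031 after thinning. Rplp2 had 0.12 with median-of-ratios scaling and 0.12 with TMM scaling. Rpl7l1 (-0.063), whose main interval held 0, also changed sign, to 0.074 with median-of-ratios scaling and 0.072 with TMM scaling.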

Other observations

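Of 12 growth control genes with at least 100 UMIs, 10 were lower and 2 higher in CPM in the adult library (median log2 ratio -0.27, against -0.14 over all genes). Intervals lay below 0 for 6 and above 0 for 1 (44.1% and 18.3% of all genes), and 1 was 1.5-fold lower (11% of all genes). Akt1s1, an inhibitor of mTOR complex 1, had 18.5 CPM in the neonatal and 12.0 CPM in the adult library (-0.62, interval -0.84 to -0.41), and Myc had 120 and 100 CPM (-0.26, -0.34 to -0.18). Sesn3, a sestrin that restrains mTOR complex 1, had 68.5 and 92.6 CPM (0.44, 0.34 to 0.53).

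Of 9 listed host genes of small nucleolar RNAs, 3 were measured, and 2 of these had intervals below 0 (44.1% of all genes did). Snhg6 had 80.6 and 37.0 CPM (-1.12, -1.24 to -1.01), Epb41l4aos had 72.3 and 43.3 CPM (-0.74), and Snhg12 had 101 and 97.97 CPM (-0.04, with an interval that held 0).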
